A study of Mus musculus with 16 samples.

Results

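The Ormdl genes Ormdl1, Ormdl2 and Ormdl3, which encode the regulatory proteins of serine palmitoyltransferase, were followed in the livers of mice with and without a liver-specific Degs1 knockout. They were found by mapping Ensembl mouse gene identifiers to the 3 symbols, and they are 3 of the 53801 genes in the deposited count table. All 3 passed the filter on low counts and were among the 14351 genes tested. RNA of 16 whole livers had been sequenced from ribosomal RNA-depleted, stranded libraries, with 4 livers in each of 4 groups. The groups were Degs1 knockouts on high-fat diet, controls on high-fat diet, Degs1 knockouts on normal chow and controls on normal chow. The labels name the knockout as liver-specific but not the Cre line, strain, sex or age of the mice, the controls' alleles or the time on diet. Each liver carries its own animal number, and p-values measure the spread between these livers. In bulk tissue, fewer cells of a type and less RNA per cell cannot be told apart.

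Serine palmitoyltransferase joins serine to a fatty acyl-CoA in the endoplasmic reticulum, which is the first and rate-limiting step of ceramide synthesis. Its core is a dimer of Sptlc1 with Sptlc2 or Sptlc3, to which a small activating subunit, Sptssa or Sptssb, is added. ORMDL proteins sit in the same membrane, bind this complex and hold its activity down when ceramide is plentiful. Degs1 acts at the end of the pathway, where it places the double bond that turns dihydroceramide into ceramide. In mammals this feedback is known to run largely through ceramide binding to the complex, and a transcript level does not measure it. In humans, ORMDL3 is best known from an asthma risk locus.

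Each mouse Ormdl gene lies on its own chromosome (build GRCm38, GENCODE M21). Ormdl1 (ENSMUSG00000026097) occupies chr1:53297095-53310309 on the plus strand, Ormdl2 (ENSMUSG00000025353) chr10:128817902-128821645 on the minus strand and Ormdl3 (ENSMUSG00000038150) chr11:98581256-98587368 on the minus strand. The longest coding transcript of each has 4 exons. Ormdl1 starts 76 bases from the start of Pms1, a mismatch repair gene that runs the other way, and 411 of its exon bases are shared with the read-through transcript Gm28778, which had 0 to 3 counts per liver. Ormdl2 shares 1114 of its 1670 exon bases with Dnajc14, a chaperone cofactor gene on the opposite strand. Whether strand was used in counting is not stated in the labels, so reads over the shared bases may have been assigned to Ormdl2, to Dnajc14 or to neither. Ormdl3 shares no exon base with another gene.

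The promoters of the 3 genes are shown because the group means of these genes were mostly lower in knockouts, and they let the starts of the genes be set side by side. Each window holds 250 bases before and 50 after the RefSeq start (GRCm38.p6), in the direction of transcription. The windows are chr1:53296845-53297144 on the plus strand for Ormdl1, chr10:128821580-128821879 on the minus strand for Ormdl2 and chr11:98587196-98587495 on the minus strand for Ormdl3. Capitals mark CCAAT read on either strand, and TGACGTCA.
Ormdl1: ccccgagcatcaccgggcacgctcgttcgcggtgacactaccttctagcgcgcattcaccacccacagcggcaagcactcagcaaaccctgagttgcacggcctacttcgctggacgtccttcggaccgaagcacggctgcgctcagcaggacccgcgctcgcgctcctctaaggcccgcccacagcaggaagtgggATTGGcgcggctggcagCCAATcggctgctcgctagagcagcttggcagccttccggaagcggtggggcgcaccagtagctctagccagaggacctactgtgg
Ormdl2: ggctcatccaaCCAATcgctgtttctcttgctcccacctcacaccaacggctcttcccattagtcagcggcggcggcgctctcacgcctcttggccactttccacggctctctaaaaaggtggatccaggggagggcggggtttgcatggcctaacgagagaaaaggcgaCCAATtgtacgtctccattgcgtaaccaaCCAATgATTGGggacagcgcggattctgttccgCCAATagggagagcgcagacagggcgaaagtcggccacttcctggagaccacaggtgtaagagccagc
Ormdl3: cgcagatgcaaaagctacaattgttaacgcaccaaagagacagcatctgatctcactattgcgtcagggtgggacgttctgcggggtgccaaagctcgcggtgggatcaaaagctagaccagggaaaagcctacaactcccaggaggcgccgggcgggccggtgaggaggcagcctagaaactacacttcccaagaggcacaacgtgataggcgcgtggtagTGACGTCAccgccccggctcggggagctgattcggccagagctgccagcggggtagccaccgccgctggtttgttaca
The 3 windows had 65.7% GC for Ormdl1, 57.7% for Ormdl2 and 59.7% for Ormdl3, against a median of 52.7% over 27025 mouse promoters. CCAAT stood at 5 places before Ormdl2 and at 2 places before Ormdl1, and it was not in the Ormdl3 window. On either strand, 37.9% of all promoters hold CCAAT. The Ormdl3 window held TGACGTCA, which reads the same on both strands, 28 bases before the start, and 1.88% of all promoters hold it. CCGGAAG was found on both strands of the Ormdl1 window as an overlapping pair at the start itself, and 9.12% of promoters hold it. Neither TATAAA, held by 14.2% of promoters, nor CACGTG, held by 7.24%, was found in any of the 3 windows on either strand. These motifs were chosen after the sequences had been seen, and a match describes the letters only.

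The libraries held 11938596 to 23250885 counts. Degs1 itself, the check of the genotype labels, had 26.1 to 41.6 CPM in high-fat knockouts and 60.2 to 101 CPM in high-fat controls, and 35.9 to 39.3 CPM in chow knockouts and 80.4 to 87.9 CPM in chow controls. CPM stands for counts scaled to library size, here with TMM factors from edgeR. Knockouts and controls did not overlap for Degs1, whose log2 fold change was -1.23 on high-fat diet (edgeR adjusted p = 0.00376) and -1.16 on chow (edgeR adjusted p = 0.0123). The chow call for Degs1 was lost in 7 of 16 fits that each left out 1 liver (any chow knockout, or chow control 1, 3 or 4), with log2 fold changes of -1.17 to -1.12 throughout. The high-fat call held in all 16 such fits and was lost when only the groups compared entered the fit (-1.23, edgeR adjusted p = 0.138). With the share of sense-intronic and unconfirmed transcripts, described below, as a term, both calls were lost. The values were -0.92 on high-fat diet (edgeR adjusted p = 0.0535) and -0.96 on chow (edgeR adjusted p = 0.0543). The hepatocyte markers Alb, Apoa1, Ttr, Cyp2e1 and Cps1 summed to 57900 to 134000 CPM in every liver, as the tissue label states. That sum was 57900 to 79300 CPM in high-fat knockouts, 76800 to 114000 CPM in high-fat controls, 114000 to 134000 CPM in chow knockouts and 104000 to 122000 CPM in chow controls. Markers of recruited macrophages summed to 17.5 to 70.8 CPM in high-fat knockouts, 10.7 to 21.1 CPM in high-fat controls, 11.1 to 22.0 CPM in chow knockouts and 14.3 to 19.9 CPM in chow controls. The share of counts on genes annotated as sense-intronic or unconfirmed transcripts was 0.162% to 0.191% in high-fat knockouts and 0.0218% to 0.164% in high-fat controls. It was 0.0463% to 0.0878% in chow knockouts and 0.0263% to 0.0411% in chow controls. Such counts may come from unspliced RNA, which was not measured. The share separated the genotypes on chow and nearly did so on high-fat diet, and it separated the diets in knockouts. A fit with this share as a term therefore cannot tell the share apart from genotype, or from diet in knockouts. High-fat control 3 stands apart within its group: it had the lowest such share, 0.0218%, and its TMM factor of 0.879 lay below the 1.04 to 1.07 of the other high-fat controls.

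Per length, Ormdl3 was the most abundant Ormdl transcript in all 16 livers. TPM stands for a count divided by transcript length and then scaled to a fixed sum over all annotated genes of a library. The length used here was the union of annotated exons. Ormdl3 averaged 91.1 ± 24.8 TPM, Ormdl2 46.9 ± 7.63 and Ormdl1 11.1 ± 3.75 (SD, n = 16). Ormdl3 made up 45.5% to 69.7% of the summed TPM of the 3 genes, Ormdl2 25.1% to 39.4% and Ormdl1 5.1% to 16.3%. The order rests on the length taken for Ormdl2: when each gene was divided only by the exon bases it shares with no other gene, Ormdl2 held a mean of 57.9% and Ormdl3 37.0%. This division kept every count of Ormdl2, so it overstates Ormdl2 if reads over the shared bases were counted for it. With the longest coding transcript as length, the mean shares were 53.6% for Ormdl3, 29.9% for Ormdl2 and 16.5% for Ormdl1.

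By group, the summed Ormdl level was 155 ± 16 TPM in high-fat knockouts and 177 ± 25.4 TPM in high-fat controls, and 119 ± 28.2 TPM in chow knockouts and 145 ± 13.9 TPM in chow controls (SD, n = 4 each). Knockout and control livers overlapped in this sum on both diets. Chow knockout 1, with 77.1 TPM, was the lowest of all livers. TPM carries no TMM factor, and these factors were 0.8593 to 0.9635 in chow knockouts and 1.108 to 1.209 in high-fat knockouts. The sums are therefore not compared between diets. In TMM-scaled CPM, the means of Ormdl1 and Ormdl2 were lower in high-fat than in chow knockouts, and that of Ormdl3 was higher. The shares set high-fat control 3 apart from the rest: Ormdl3 made up 45.5% of its sum, against 65.7% to 68.6% in the other high-fat controls, and Ormdl1 made up 16.3%.

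**Figure D1:**
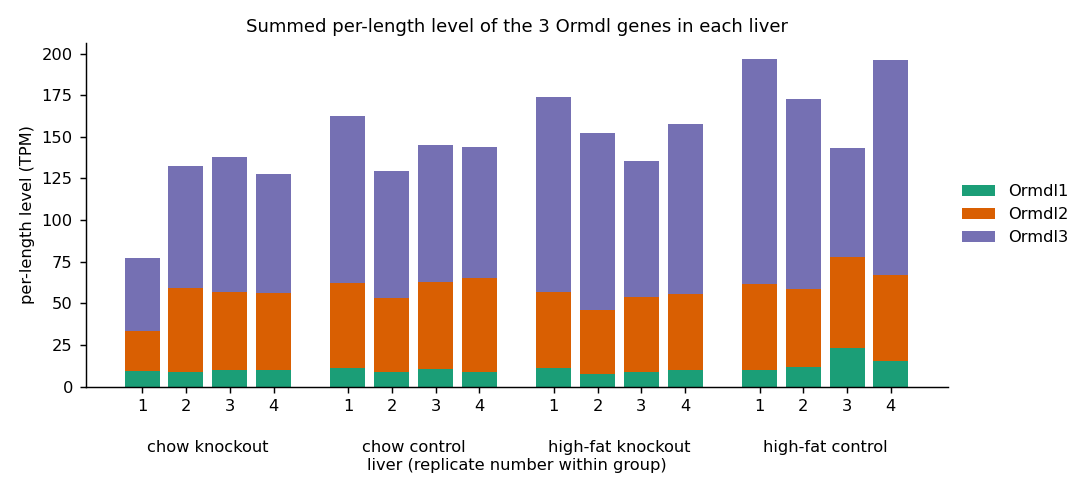
Per-length level (TPM over the exon union, without TMM factors) of the 3 Ormdl genes, stacked for each of 16 livers by group, knockout left of control. Ormdl3 is the largest segment in every liver on this length, the mean share of Ormdl2 is larger when only its unshared exon bases are used as length, and high-fat control 3 has the largest Ormdl1 segment at 23.4 TPM.

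Of the 5 genes for the enzyme's own subunits, 3 were expressed in these livers. Sptssa, the small activating subunit, averaged 43.4 TPM over the 16 livers, Sptlc1 19.5 TPM and Sptlc2, the catalytic partner, 9.69 TPM. The alternative subunit Sptlc3 had 0 to 5 counts per liver and Sptssb 0 to 1, and neither was tested.

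Ormdl1 was lowest in high-fat knockouts. Its level was 17.0, 12.4, 15.9 and 17.5 CPM in high-fat knockouts and 18.8, 22.2, 59.0 and 27.2 CPM in high-fat controls. On chow it was 24.6, 17.5, 20.4 and 21.7 CPM in knockouts and 23.6, 20.1, 23.2 and 15.7 CPM in controls. On high-fat diet every knockout lay below every control, and the control at 59.0 CPM stood far above the next, at 27.2 CPM, while on chow the genotypes overlapped throughout. Group means ran from 31.8 ± 18.5 CPM in high-fat controls through 21 ± 2.95 in chow knockouts and 20.6 ± 3.62 in chow controls to 15.7 ± 2.28 in high-fat knockouts, each as mean ± SD of 4 livers, and each neighbouring pair in this order overlapped.

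Ormdl2 lay lower in knockouts on both diets. Its level was 24.7, 21.5, 27.9 and 27.7 CPM in high-fat knockouts and 34.2, 30.9, 49.0 and 31.8 CPM in high-fat controls. On chow it was 22.3, 35.5, 32.5 and 34.6 CPM in knockouts and 37.7, 36.2, 40.9 and 36.4 CPM in controls. No knockout reached the lowest control on its own diet, but on chow the highest knockout, at 35.5 CPM, was just under the lowest control, at 36.2 CPM. Group means were 37.8 ± 2.14 CPM in chow controls, 36.5 ± 8.47 in high-fat controls, 31.2 ± 6.05 in chow knockouts and 25.5 ± 2.99 in high-fat knockouts, each as mean ± SD of 4 livers, and each neighbouring pair in this order overlapped.

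Ormdl3 had its highest mean in high-fat controls and its lowest in chow knockouts. Its level was 82.1, 78.2, 66.2 and 81.1 CPM in high-fat knockouts and 117, 98.4, 76.5 and 104 CPM in high-fat controls. On chow it was 53.6, 67.9, 74.8 and 70.3 CPM in knockouts and 97.0, 80.4, 84.6 and 66.0 CPM in controls. The genotypes overlapped on both diets, through high-fat control 3 at 76.5 CPM and chow control 4 at 66.0 CPM. Group means were 98.9 ± 16.9 CPM in high-fat controls, 82.0 ± 12.8 in chow controls, 76.9 ± 7.31 in high-fat knockouts and 66.7 ± 9.2 in chow knockouts (SD, n = 4 each), with each neighbouring pair overlapping.

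**Figure D2:**
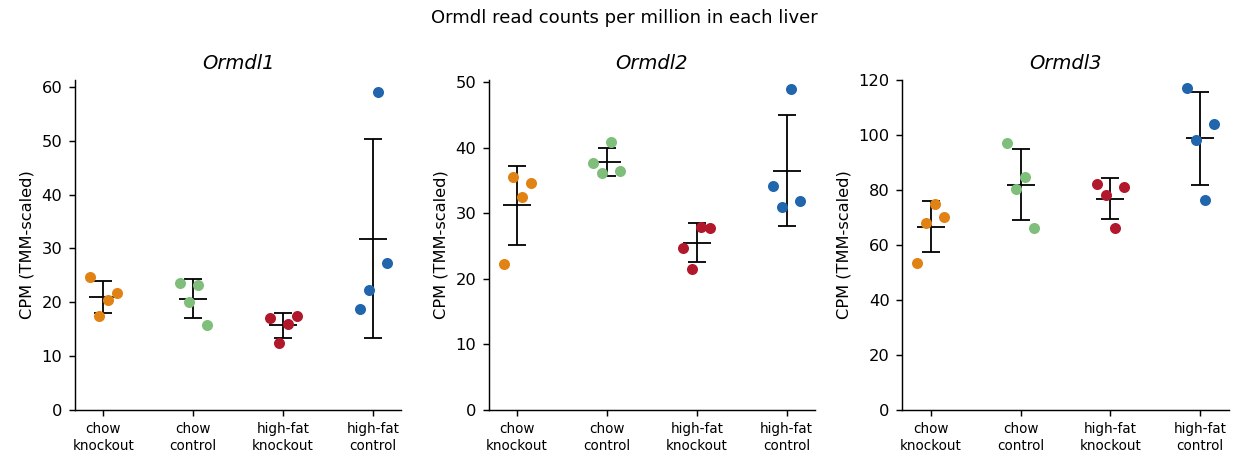
CPM (TMM-scaled) of Ormdl1, Ormdl2 and Ormdl3 in each liver by group, with the mean and SD as bars. For Ormdl1 and Ormdl2 the high-fat knockouts sit below all high-fat controls, and for both genes high-fat control 3 is the top point of its group, at 59.0 and 49.0 CPM.

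The first comparison was knockout against control on high-fat diet, where all 3 Ormdl genes had lower means in knockouts and none passed the edgeR threshold. The log2 fold change of Ormdl1 was -1.02 (SE 0.27, edgeR adjusted p = 0.0982), a level 0.494 times that of controls. For Ormdl2 it was -0.52 (SE 0.17, edgeR adjusted p = 0.114), and for Ormdl3 it was -0.36 (SE 0.15, edgeR adjusted p = 0.182). Thus 0 of 3 members were called at an adjusted p under 0.05, where 0.111% of all tested genes were called (16 genes, and 3066 at an unadjusted p under 0.05). Knockouts lay below all controls for 2 of the 3, Ormdl1 and Ormdl2, as they did for 7.78% of all tested genes. DESeq2 called Ormdl1 lower in knockouts, with a log2 fold change of -1.02 and an adjusted p of 0.0219, as did edgeR without the filter on low counts (-1.01, adjusted p = 4.11e-05). DESeq2 called 633 of 14351 genes in this comparison, and edgeR without the filter called 964 of 36204. Neither of the other 2 genes was called under any alternative in this comparison.

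The size of the Ormdl1 difference rested on 1 liver. Without high-fat control 3 the log2 fold change of Ormdl1 was -0.52 (SE 0.172, edgeR adjusted p = 0.244), that of Ormdl2 was -0.33 (edgeR adjusted p = 0.368) and that of Ormdl3 was -0.45 (edgeR adjusted p = 0.231). High-fat control 3 was the highest of its group for Ormdl1 and Ormdl2 and the lowest for Ormdl3. Over 16 fits that each left out 1 liver, the log2 fold change ran from -1.21 to -0.52 for Ormdl1, from -0.60 to -0.33 for Ormdl2 and from -0.45 to -0.28 for Ormdl3, and no fit called any of them. When the log2 of the sense-intronic and unconfirmed transcript share was added as a term, the values were -0.30 for Ormdl1 (edgeR adjusted p = 0.813), -0.22 for Ormdl2 (edgeR adjusted p = 0.8) and -0.53 for Ormdl3 (edgeR adjusted p = 0.358). That share was higher in 3 of 4 high-fat knockouts than in every high-fat control. Scaling by library totals alone put the median of all genes at 0.228, against 0.0259 in the main fit. It gave -0.76 for Ormdl1, -0.30 for Ormdl2 and -0.17 for Ormdl3, none of them called by edgeR.

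**Figure D3:**
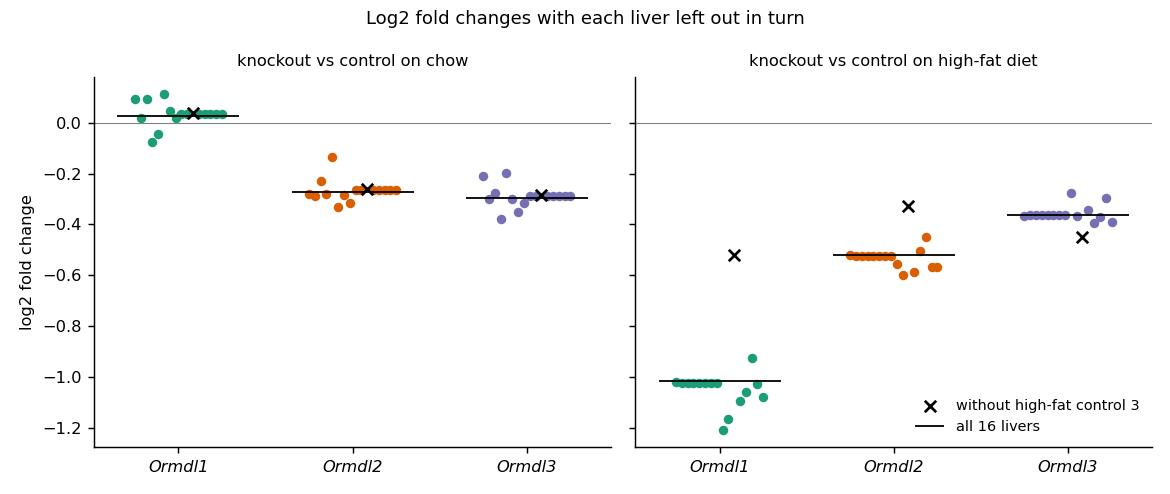
Log2 fold change of each Ormdl gene, knockout over control, in edgeR fits that each leave out 1 of the 16 livers, on high-fat diet and on chow. The cross is the fit without high-fat control 3, which on high-fat diet gives the value nearest 0 for Ormdl1 (-0.52) and Ormdl2 (-0.33) and the one farthest from 0 for Ormdl3 (-0.45).

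On chow no Ormdl gene was called between knockouts and controls. On the log2 scale Ormdl2 differed by -0.27 (SE 0.17, edgeR adjusted p = 0.602) and Ormdl3 by -0.30 (SE 0.15, edgeR adjusted p = 0.539). Ormdl1, at 0.03 (SE 0.27, edgeR adjusted p = 0.984), showed no direction that held: it was -0.023 in limma-voom, -0.076 without chow control 4 and -0.044 without chow knockout 1. The 0 of 3 stand against 0.0139% of all tested genes called (2 genes, and 1366 at an unadjusted p under 0.05). Only Ormdl2 had all knockouts below all controls, as 2.9% of tested genes did. With the same share of transcripts as a term, Ormdl1 was at 0.45 (edgeR adjusted p = 0.431), Ormdl2 at -0.084 (edgeR adjusted p = 0.87) and Ormdl3 at -0.41 (edgeR adjusted p = 0.31). That share was higher in every chow knockout than in every chow control, so on chow the term cannot be told apart from genotype. Without chow knockout 1, the library with the fewest counts, the values were -0.14 for Ormdl2 (edgeR adjusted p = 0.871) and -0.20 for Ormdl3 (edgeR adjusted p = 0.795).

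Averaged over both diets, with 8 knockouts against 8 controls, the log2 fold changes were -0.50 for Ormdl1 (SE 0.19, edgeR adjusted p = 0.178), -0.40 for Ormdl2 (SE 0.12, edgeR adjusted p = 0.139) and -0.33 for Ormdl3 (SE 0.11, edgeR adjusted p = 0.145). None of the 3 was called, against 0.174% of all tested genes (25 genes, and 2967 at an unadjusted p under 0.05). The unadjusted edgeR p-values were 0.0189 for Ormdl1, 0.00338 for Ormdl2 and 0.00659 for Ormdl3, so the adjustment over all genes decides these calls. With the share of sense-intronic and unconfirmed transcripts as a term, the average was 0.073 for Ormdl1 (edgeR adjusted p = 0.947), -0.15 for Ormdl2 (edgeR adjusted p = 0.801) and -0.47 for Ormdl3 (edgeR adjusted p = 0.349). Without high-fat control 3, Ormdl1 averaged -0.24 (edgeR adjusted p = 0.308), while Ormdl2 and Ormdl3 were at -0.29 (edgeR adjusted p = 0.175) and -0.37 (edgeR adjusted p = 0.129).

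The genotype by diet interaction asks whether the knockout difference itself differed between high-fat diet and chow. It was -1.04 for Ormdl1 (SE 0.38, edgeR adjusted p = 0.329), -0.24 for Ormdl2 (SE 0.23, edgeR adjusted p = 0.729) and -0.07 for Ormdl3 (SE 0.21, edgeR adjusted p = 0.934). None of the 3 was called, and edgeR called 0 of all tested genes (0%), with 1615 at an unadjusted p under 0.05, 83 called by DESeq2 and 9 by limma-voom. Without the filter on low counts edgeR called Ormdl1 (-1.03, adjusted p = 0.022), and it called 259 of 36204 genes in that fit. Without high-fat control 3 the interaction was -0.56 for Ormdl1 (edgeR adjusted p = 0.393), -0.066 for Ormdl2 (edgeR adjusted p = 0.938) and -0.17 for Ormdl3 (edgeR adjusted p = 0.79). Without chow knockout 1 it was -0.39 for Ormdl2 (edgeR adjusted p = 0.496) and -0.17 for Ormdl3 (edgeR adjusted p = 0.781).

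High-fat diet against chow was compared within each genotype. In knockouts the log2 fold changes were -0.42 for Ormdl1 (SE 0.27, edgeR adjusted p = 0.325), -0.30 for Ormdl2 (SE 0.17, edgeR adjusted p = 0.249) and 0.21 for Ormdl3 (SE 0.15, edgeR adjusted p = 0.391). None was called, where 10.6% of all tested genes were, and none was without overlap, where 24.5% of tested genes were. The Ormdl1 value was -0.47 and called in limma-voom (adjusted p = 0.0408), and 0.19 with the share of sense-intronic and unconfirmed transcripts as a term (edgeR adjusted p = 0.652). Ormdl2 was called lower by limma-voom (-0.42, adjusted p = 0.0127) and by edgeR without both chow knockout 1 and high-fat control 3 (-0.42, adjusted p = 0.0122). Scaling by library totals alone called Ormdl3 higher (0.54, edgeR adjusted p = 0.0406), and the share as a term put it at 0.012 (edgeR adjusted p = 0.977). Limma-voom called 4345 of 14351 genes in this comparison, against 1516 in the main fit. The fit without both livers and the one with library totals alone also called more genes than the main fit. Without chow knockout 1 the value of Ormdl2 was -0.42 (edgeR adjusted p = 0.0935) and that of Ormdl3 0.12 (edgeR adjusted p = 0.628).

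In controls the log2 fold changes for high-fat diet against chow were 0.62 for Ormdl1 (SE 0.27, edgeR adjusted p = 0.243), -0.05 for Ormdl2 (SE 0.17, edgeR adjusted p = 0.916) and 0.27 for Ormdl3 (SE 0.15, edgeR adjusted p = 0.386). None was called, where 1.83% of all tested genes were, and none was without overlap, where 7.23% were. The Ormdl1 value in controls was 0.14 without high-fat control 3 (edgeR adjusted p = 0.69). It was called higher by edgeR without the filter on low counts (0.63, adjusted p = 0.0332) and with the share of sense-intronic and unconfirmed transcripts as a term (0.94, adjusted p = 0.0131). Those fits also called more genes than the 262 of the main fit, with 992 of 36204 called without the filter. Without high-fat control 3, Ormdl2 was at -0.23 in controls (edgeR adjusted p = 0.389). No direction is given for Ormdl1 in knockouts, where the share as a term turned its sign, nor for Ormdl2 in either genotype, since scaling by library totals alone, which put the median of all genes at 0.363 in knockouts and 0.125 in controls, gave Ormdl2 as 0.033 and 0.045.

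**Figure D4:**
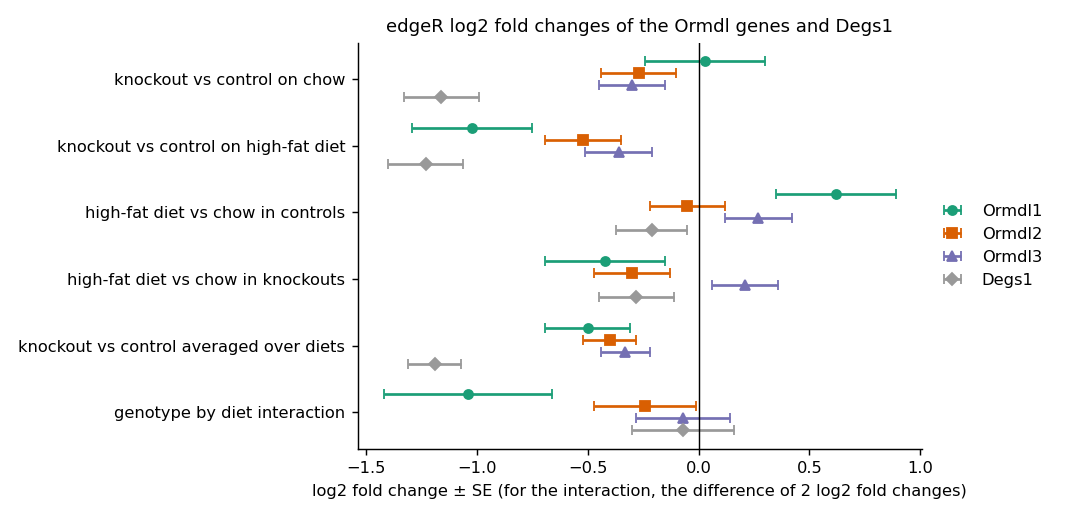
Log2 fold change with its SE (edgeR, 16 livers) of Ormdl1, Ormdl2, Ormdl3 and Degs1 in 6 comparisons. Degs1 lies near -1.2 in the 3 knockout comparisons, and no Ormdl value passed the edgeR threshold in any of the 6.

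The subunits that ORMDL proteins bind were not called between genotypes either, where only 0.111% of all tested genes were on high-fat diet and 0.0139% on chow. On high-fat diet, Sptssa averaged 21.4 ± 2.94 CPM over 4 knockouts, against 33.5 ± 16.6 CPM over 4 controls (SD). Its log2 fold change was -0.65, with an SE of 0.24 and an edgeR adjusted p of 0.144. High-fat control 3 had 58.2 CPM of Sptssa and the other 3 high-fat controls 23.3 to 28.9 CPM, and without that liver the value was -0.23 (edgeR adjusted p = 0.565). Sptlc1 had 20.3 to 26.1 CPM in knockouts and 23.1 to 36.2 CPM in controls, with -0.37 (SE 0.15, edgeR adjusted p = 0.174). Sptlc2 had 28.2 to 37.1 CPM in knockouts and 22.9 to 37.0 CPM in controls, with 0.11 (SE 0.14, edgeR adjusted p = 0.649). Without high-fat control 3, Sptlc1 was at -0.25 (edgeR adjusted p = 0.493) and Sptlc2 at 0.022 (edgeR adjusted p = 0.954). With the share of sense-intronic and unconfirmed transcripts as a term, Sptssa was at -0.014, Sptlc1 at -0.081 and Sptlc2 at 0.038, none of them called by edgeR. All 3 overlapped between genotypes. On chow their log2 fold changes were 0.13 for Sptssa, -0.18 for Sptlc1 and 0.00 for Sptlc2, with edgeR adjusted p-values of 0.892, 0.71 and 0.997. For high-fat diet against chow, the main fit called none of them in either genotype. Sptssa was called higher in controls with the share as a term (0.63, edgeR adjusted p = 0.0363). Without high-fat control 3, Sptssa was called lower in knockouts (-0.45, edgeR adjusted p = 0.0413).

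The wider pathway was followed with lists of genes. Of 14 genes for sphingoid base and ceramide synthesis, 9 were tested, and only Degs1, the knocked-out gene, fell in the knockout comparisons. The median log2 fold change of those 9, which include Degs1 itself, was -0.34 on high-fat diet, with 5 below 0 and 4 above. On chow it was -0.18, with 6 below 0 and 3 above. Over all tested genes the medians were 0.03 and -0.01. Of 20 genes that use or break down ceramide, 17 were tested, and none was called between genotypes, with medians of -0.02 on high-fat diet and 0.00 on chow. Over all tested genes, only 0.111% were called between genotypes on high-fat diet and 0.0139% on chow. In knockouts on high-fat diet against chow, 4 of these 17 were called, where 10.6% of all tested genes were. Smpd3, a neutral sphingomyelinase, rose by 1.76 (SE 0.50, edgeR adjusted p = 0.0347), and Sgms1, the Golgi sphingomyelin synthase, rose by 0.48 (SE 0.15, edgeR adjusted p = 0.0446). Sgms2, the plasma membrane sphingomyelin synthase, fell, at -0.69 on the log2 scale (SE 0.20, edgeR adjusted p = 0.0323), and Ugcg, which makes glucosylceramide, fell too, at -0.61 (SE 0.16, edgeR adjusted p = 0.0216). Each of these 4 calls was lost in 5 to 7 of 16 fits that left out 1 liver, with no change of sign; the liver left out was a knockout each time, or chow control 2 for Sgms1. The share of sense-intronic and unconfirmed transcripts as a term ended the calls of Smpd3 (1.59), Sgms1 (0.38) and Ugcg (-0.53), and library totals alone ended those of Sgms2 (-0.35) and Ugcg (-0.28). The call of Sgms1 was also lost without the filter on low counts (0.49) and that of Sgms2 with upper-quartile factors (-0.60).

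Because ORMDL proteins and the enzyme sit in the endoplasmic reticulum, genes of its stress response were set beside them. All 16 listed genes were tested, and none was called between knockouts and controls on either diet or on average. Of all tested genes, only 0.111% were called on high-fat diet, 0.0139% on chow and 0.174% on average. The 16 listed genes had a median of -0.29 on high-fat diet and -0.09 on chow. In knockouts on high-fat diet against chow, all 16 had values below 0, with a median of -0.39 against 0.02 over all tested genes. Of the 16, 3 fell, where 10.6% of all tested genes were called in either direction and 768 of 14351 were called lower. With library totals alone, 9 of the 16 were below 0, with a median of -0.054 against 0.363 over all tested genes. The 3 that fell in the main fit were Dnajb9 (-1.36, SE 0.24, edgeR adjusted p = 0.0043), Hspa5 (-0.82, SE 0.24, edgeR adjusted p = 0.0378) and Manf (-0.89, SE 0.27, edgeR adjusted p = 0.0424). Dnajb9 and Hspa5 are chaperones of this compartment, and Manf is a secreted stress-induced factor. Dnajb9 was called in all 16 fits that left out 1 liver, whereas Hspa5 lost its call without chow knockout 2 or 4 or high-fat knockout 2, 3 or 4. Manf lost its call without any of those 5, any chow control or high-fat control 4. Both calls were also lost with upper-quartile factors, with library totals alone, with only the groups compared and with the share of sense-intronic and unconfirmed transcripts as a term, at -0.81 to -0.48 for Hspa5 and -0.89 to -0.55 for Manf. In controls on high-fat diet against chow all 16 were also below 0, with a median of -0.38 against 0.01 over all tested genes, and none was called. In other scalings 15 of the 16 were below 0.

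The genes next to and across the Ormdl genes were not called between genotypes on either diet. Few genes were: 0.111% of all tested genes on high-fat diet and 0.0139% on chow. On high-fat diet the log2 fold change was -0.01 for Pms1 (edgeR adjusted p = 0.977) and -0.32 for Osgepl1 (edgeR adjusted p = 0.235), the neighbours of Ormdl1. Dnajc14, which overlaps Ormdl2 on the other strand, had 39.9 to 47.0 CPM in high-fat knockouts and 30.9 to 43.8 CPM in high-fat controls, and a log2 fold change of 0.13 (edgeR adjusted p = 0.587), opposite in sign to that of Ormdl2. Sarnp, whose introns span Ormdl2, was at -0.29 (edgeR adjusted p = 0.47), and Tmem198b at 0.26 (edgeR adjusted p = 0.582). Zpbp2 and Gdf11 had 0 to 7 counts per liver, Lrrc3c had none in any liver, and none of these was tested.

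Within groups, the 3 Ormdl genes had no correlation that passed a permutation test. After each group's mean was subtracted from log2 CPM, Pearson's r over 16 livers was 0.491 for Ormdl1 and Ormdl2 (permutation p = 0.172, adjusted over 3 pairs 0.39), with Spearman's rho 0.371 (permutation p = 0.195, adjusted 0.586). For Ormdl1 and Ormdl3, r was -0.402 (permutation p = 0.26, adjusted 0.39) and rho -0.153 (permutation p = 0.631, adjusted 0.947). For Ormdl2 and Ormdl3, r was -0.0388 (permutation p = 0.882, adjusted 0.882) and rho 0.0206 (permutation p = 0.95, adjusted 0.95). Without the 2 livers farthest from the median, r was 0.115 for Ormdl1 and Ormdl2 and 0.206 for Ormdl1 and Ormdl3, both without high-fat controls 1 and 3, and -0.0133 for Ormdl2 and Ormdl3.

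The genes most like each Ormdl gene across livers were taken from 9882 tested genes of mean log2 CPM of at least 2, by r after subtracting group means (n = 16, a description without a p). For Ormdl1 they were Atg5, which acts in autophagosome formation (r = 0.957), Mpc2, a subunit of the mitochondrial pyruvate carrier (0.952), and Mycbp (0.95). For Ormdl2 they were Hao1, the hepatic glycolate oxidase (0.94), Nedd8, a ubiquitin-like modifier (0.936), and Vamp8, a vesicle fusion protein (0.919). For Ormdl3 they were Ushbp1 (0.902), the transcriptional repressor gene Mxd4 (0.895) and Zfyve27, a protein of the endoplasmic reticulum (0.877). Without the 2 livers farthest from the median these 9 values were 0.812 to 0.889, and the median r over all compared genes was 0.0154 for Ormdl1, 0.042 for Ormdl2 and 0.00814 for Ormdl3. These values share their livers, library depth and scaling.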

How the data were processed

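Liver RNA was extracted and made into stranded libraries after ribosomal RNA removal (TruSeq, Ribo-Zero Gold), per the labels. The authors deposited raw counts per Ensembl gene; the submitters' processing notes name GRCm38, STAR 2.5.4a, featureCounts 1.5.1 and DESeq2, while the annotation release, the strand setting and the treatment of shared reads were not given there or in the labels. From these counts, library sizes were scaled by TMM in edgeR 4.0.16 (R 4.3.3), genes were filtered with filterByExpr (minimum count 10), and 14351 genes were tested with edgeR's quasi-likelihood F test over all 16 livers, 1 term per group. Benjamini-Hochberg adjustment ran over all genes tested, with a threshold of 0.05, and no block was used. Per-length levels divide counts by GENCODE M21 exon unions and are TPM. Correlations used 100000 permutations within groups of log2 CPM (prior count 2). Alternatives were DESeq2 1.42.0, limma 3.58.1 (voom with sample quality weights), other scalings, no filter, only the groups compared and each liver left out. Genes named are the Ormdl genes, Degs1, serine palmitoyltransferase subunits, called members of 3 lists, neighbouring genes and the 3 most similar genes. The members and lists were chosen with earlier results of these data known. Library totals of 11938596 to 23250885 counts gave Ormdl1 242 to 872, Ormdl2 229 to 808 and Ormdl3 549 to 2077 counts per liver. No liver was left out of the main tests.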

Additional observations from a re-analysis of the deposited data

Results flagged for a closer look

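High-fat control 3 lay far from the other livers of its group in the make-up of the Ormdl transcripts per length. Ormdl2 made up 38.2% of the summed Ormdl level in that liver, against 26.2% to 27.1% in the other 3 high-fat controls. Ormdl3 made up 45.5% in that liver, against 65.7% to 68.6% in the other 3. Both shares are parts of 1 sum in the same liver and are not independent, and a gap of this size appears by chance in about 1 in 20 groups. The rule was applied to the CPM and to the share of each Ormdl gene in every group, so a flag somewhere by chance is likelier than that. In CPM, the gap of the same liver to the next, divided by the range of the group, was 0.79 for Ormdl1 and 0.818 for Ormdl2, both under the critical value for 4 samples. The liver also had the lowest share of sense-intronic and unconfirmed transcripts in its group, 0.0218%, and the part of this in its Ormdl values was not tested.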

How the results depend on the processing

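In knockouts against controls, Ormdl2 and Ormdl3 kept a value below 0 and no call under every alternative run, on each diet and on average. Ormdl1 was called on high-fat diet by DESeq2 (-1.02, adjusted p = 0.0219). Without the filter on low counts it was called there (-1.01, 4.11e-05), in the average over diets (-0.49, 0.0151), in the interaction (-1.03, 0.022) and for high-fat diet in controls (0.63, 0.0332). On chow Ormdl1 was -0.023 in limma-voom, -0.039 with both high-fat control 3 and chow knockout 1 left out, and -0.076 to 0.11 over fits with 1 liver left out. For high-fat diet in knockouts, limma-voom called Ormdl1 (-0.47, adjusted p = 0.0408) and Ormdl2 (-0.42, 0.0127), the fit without both livers called Ormdl2 (-0.42, 0.0122), and library totals alone called Ormdl3 (0.54, 0.0406). Library totals alone also put Ormdl2 at 0.033 there and at 0.045 in controls, and the interaction of Ormdl3 at 0.14. With the share of sense-intronic and unconfirmed transcripts as covariate, Ormdl1 was 0.94 for diet in controls (adjusted p = 0.0131), 0.19 for diet in knockouts and 0.073 on average, and Ormdl2 was 0.15 for diet in controls and 0.018 in knockouts. Over fits with 1 liver left out, Ormdl2 ran from -0.23 to 0.044 for diet in controls and the Ormdl3 interaction from -0.17 to 0.014. Mean per-length shares moved to 16.5% for Ormdl1 and 53.6% for Ormdl3 with the longest coding transcript. They moved to 57.9% for Ormdl2 and 37.0% for Ormdl3 with unshared exon bases as length and all counts kept. Correlations without the 2 farthest livers were 0.115 for Ormdl1 and Ormdl2 and 0.206 for Ormdl1 and Ormdl3.

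Counts of called genes moved more than the Ormdl values. For knockout on chow (2 genes), DESeq2 called 50, no filter 308, limma-voom 4, only the groups compared 1, the covariate 0 and fits with 1 liver left out 0 to 4. For knockout on high-fat diet (16 genes), the counts were 633 with DESeq2, 34 with upper-quartile factors, 964 with no filter, 287 with limma-voom, 1 with only the groups compared, 0 with the covariate, 100 with library totals and 3 to 31 with 1 liver left out. For diet in controls (262 genes), they were 794 with DESeq2, 992 with no filter, 790 with limma-voom, 75 with only the groups compared, 1219 without both livers, 1157 with the covariate and 100 to 955 with 1 liver left out. For diet in knockouts (1516 genes), they were 4345 with limma-voom, 2793 with only the groups compared, 3273 without both livers, 873 with the covariate, 3320 with library totals and 465 to 2914 with 1 liver left out. For the average (25 genes), they were 330 with DESeq2, 949 with no filter, 76 with limma-voom, 4 with the covariate, 14 with library totals and 6 to 31 with 1 liver left out. For the interaction (0 genes), they were 83 with DESeq2, 259 with no filter, 9 with limma-voom and 0 to 1 with 1 liver left out. The covariate, the library totals, the unshared exon bases and the pair of livers were chosen after seeing the data, and the cause of each change was not tested. No paired analysis was possible because livers were numbered by animal and no label pairs them. Animal numbers run in separate blocks by group, so any batch that follows them cannot be told apart from the groups. With 4 livers a group the SE of an Ormdl difference between knockouts and controls within a diet was 0.15 to 0.27 on the log2 scale, which limits how small a difference could be called.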
